A study of Ostrinia nubilalis with 16 samples.

Results

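Digestive serine proteases of the trypsin and chymotrypsin type were followed in the larval gut of the European corn borer, Ostrinia nubilalis. The genes were chosen by sequence, as those for which a non-control probe of the array shares at least 18 consecutive bases, on either strand, with a published RT-qPCR primer. Of 20 genes with such primers, 14 were serine proteases, and 4 of these 14 matched: Contig[0130] (named chymotrypsin-like), Contig[0293] (trypsin-like), ECB-C-18-B11 (trypsin) and Contig[0039] (trypsin-like). They were measured by 18 of the 12972 non-control probes. The primers of the other 10 serine proteases matched 0 probes under this rule, so these 10 were not analysed here. In all, 6 of the 20 genes matched, and the other 2 of the 6 are not serine proteases.

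RNA was taken from whole guts of larvae of the third instar that had been starved for 24 h and then fed leaves for 6 h, with 5 guts in each pool. S-strain is susceptible to Cry1Ab, and R-strain had been selected from it in the laboratory on diet with Cry1Ab protoxin. Larvae of both strains fed either on transgenic corn leaves, from a hybrid with event MON810 that makes Cry1Ab, or on leaves of its non-transgenic isoline. Each of the 4 groups had 4 pools on 4 single-colour arrays, 16 arrays in all. Larvae shared a laboratory strain, and nothing says that the pools came from separate rearings, so p-values measure the spread between these pools. The series description speaks of 3 experiments and gut samples, whereas the labels and methods give 4 pools a group, which was followed. The files name no genes for probes, so the tissue could not be checked by markers, and the probes were not placed on a genome.

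Serine proteases of the midgut carry out most of the digestion of protein in caterpillars. Trypsins cut proteins after lysine and arginine, and chymotrypsins after large hydrophobic residues. They are made as inactive zymogens and are released into the gut lumen. The same enzymes cut Cry protoxins of Bacillus thuringiensis to the active toxin and can degrade the toxin further, and for this reason they are studied in resistant insects. The gene families are large, and a transcript of a related gene that holds the same bases would bind the same probe.

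The probes show what was measured for each gene. The names of the genes are those printed with the primers, and whether a probe holds protease-coding sequence was not tested. In the sequences below, read 5′ to 3′, capitals mark the bases shared with a primer. For Contig[0130], ECB-C-18-B11 and Contig[0039], 1 probe of each set is shown:
ECB_Gut 508: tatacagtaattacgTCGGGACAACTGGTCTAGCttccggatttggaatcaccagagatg
ECB_Gut 7513: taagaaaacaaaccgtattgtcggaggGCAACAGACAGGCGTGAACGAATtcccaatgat
ECB_Gut 6550: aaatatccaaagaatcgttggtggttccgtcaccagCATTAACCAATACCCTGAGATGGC
All 5 probes of Contig[0293] are shown, because their strain differences diverged although their sequences are nearly the same:
ECB_Gut 2262: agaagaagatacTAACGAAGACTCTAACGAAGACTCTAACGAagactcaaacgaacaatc
ECB_Gut 2263: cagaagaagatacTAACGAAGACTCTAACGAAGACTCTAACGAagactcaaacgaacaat
ECB_Gut 2264: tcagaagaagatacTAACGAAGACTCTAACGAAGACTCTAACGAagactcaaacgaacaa
ECB_Gut 2265: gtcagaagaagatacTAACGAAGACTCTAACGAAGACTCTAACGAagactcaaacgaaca
ECB_Gut 2266: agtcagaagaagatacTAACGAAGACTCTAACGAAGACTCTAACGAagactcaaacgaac

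Each probe was 60 bases long, and the probes of a gene were shifted copies of each other. The 4 probes of Contig[0130] lay within 69 bases, the 5 of Contig[0293] within 64, the 4 of ECB-C-18-B11 within 63 and the 5 of Contig[0039] within 66. Within a gene they overlapped by 51 to 59 bases, so they do not measure a gene independently. Between genes, no stretch of more than 7 bases was shared. The probes of Contig[0293] were the poorest in G and C, at 38.33 to 40% against 41.67 to 45% for the other genes. They held a repeat of a unit of 12 bases over 37 bases, through which the primer bases occurred as 2 overlapping copies. Only these 5 of the 12972 probes held such a repeat.

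The limit of 18 bases was met exactly by ECB_Gut 6554 of Contig[0039] and by the probes of Contig[0293]. Just outside lay ECB_Gut 12108, with 17 bases of a Contig[0039] primer, and ECB_Gut 1509 and ECB_Gut 1510, each with 17 bases of a primer of another chymotrypsin-like gene. In this order, their log2 ratios between transgenic and non-transgenic corn were -1.23, -0.90 and -1.38 in S-strain and -0.17, -0.17 and -0.22 in R-strain. ECB_Gut 12108 shared 59 bases with a probe of Contig[0039]. Its neighbours ECB_Gut 12109 to ECB_Gut 12112, which shared 55 to 58, had less negative log2 ratios, of -0.96 to -0.79 in S-strain and -0.16 to -0.10 in R-strain.

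S-strain had a slide of 8 arrays to itself, as did R-strain, and each slide had its own scan. Strain, slide and scan therefore cannot be told apart, while both corns shared each slide and each of its 2 rows. Between 9244 and 11010 probes of an array were well above background. The 75th percentile of the signal was 733 to 1166 on the S-strain slide and 1334 to 2084 on the R-strain slide. All 288 spots of the serine protease probes were well above background and 0 were saturated. Their processed signals were 63.0 to 16402, against a highest local background of 45.5. The lowest signal was 63.0 for Contig[0293], 286 for ECB-C-18-B11, 473 for Contig[0130] and 1395 for Contig[0039], so only Contig[0293] came near that background. S-strain transgenic replicate 1 stood apart with 9244 probes above background, and R-strain transgenic replicate 1 had the lowest array weight (0.321). Values without these arrays are given where they change a result.

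Levels are log2 signals measured from the 75th percentile of each array, and the value of a gene is the mean of its primer-holding probes. A value of 0 is thus the level of a probe at that percentile. Levels of different genes were not set against each other, and probes were compared only within a gene. To be past the threshold, a gene needed an expression ratio of 2 or more and a limma p under 0.05 after Benjamini-Hochberg adjustment over the 11077 to 11140 features tested in a contrast. The study had selected these genes among those that changed on the same arrays, and lists most of them for S-strain alone and Contig[0039] for both strains. The direction of their corn response and a smaller response in R-strain are therefore not independent evidence. Nor are a lower level in S-strain than in R-strain on transgenic corn, or the p-values of any of these.

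Transcripts of the serine proteases were lower in S-strain larvae on transgenic than on non-transgenic corn leaves for 4 of the 4 genes. Of these, 3 were past the threshold, with ratios from 2.90 to 3.1, beside 10.0% of all features lower past it. For all 4, with the probes of a gene averaged, each array of transgenic corn was below each array of non-transgenic corn. So it was for 14.3% of all features, nearly all of which are single probes. Taken singly, ECB_Gut 2263 and ECB_Gut 2266 of Contig[0293] and ECB_Gut 6550 of Contig[0039] overlapped between the corns. The median log2 ratio of the 4 genes was -1.55, beside 0.05 over all features. The 4 log2 ratios were also negative in R-strain larvae, with a median of -0.37 beside 0.05 over all features. There 0 were past the threshold, beside 2.99% of all features lower past it. On non-transgenic corn 0 of the 4 genes differed past the threshold between the strains, beside 19.6% of all features in either direction. On transgenic corn 2 were higher in R-strain past it, beside 10.8% of all features.

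Contig[0130], the chymotrypsin-like gene, had log2 levels of -0.09, 0.53, 0.25 and 0.80 in S-strain larvae on transgenic corn (0.37 ± 0.38, SD, n = 4). On non-transgenic corn the S-strain levels were 1.63, 1.98, 2.46 and 1.56 (1.91 ± 0.42, SD, n = 4). The 2 sets did not overlap, and the gap between the highest array on transgenic corn and the lowest on non-transgenic corn exceeded the SD of either group. Expression of Contig[0130] was 2.90-fold lower on transgenic corn (log2 ratio -1.53, SE 0.23, limma adjusted p = 0.000142).

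Contig[0293], trypsin-like, had S-strain levels of -2.89, -2.05, -1.01 and -1.91 on transgenic corn (-1.97 ± 0.77, SD, n = 4). On non-transgenic corn its levels were -0.28, 0.10, -0.96 and -0.20 (-0.33 ± 0.45, SD, n = 4). The 2 sets only just failed to overlap, as replicate 3 was the highest array of the first and the lowest of the second. On transgenic corn its expression was 3.1-fold lower (log2 ratio -1.63, SE 0.31, limma adjusted p = 0.00100). Without S-strain transgenic replicate 1, the lowest array, the log2 ratio of Contig[0293] was -1.32 (limma adjusted p = 0.00226), and with normexp background correction it was -1.08 (limma adjusted p = 0.0239).

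ECB-C-18-B11, named as a trypsin, had S-strain levels of -1.03, -1.13, -0.99 and -1.41 on transgenic corn (-1.14 ± 0.19, SD, n = 4). On non-transgenic corn they were 0.70, 0.02, 0.51 and 0.46 (0.42 ± 0.28, SD, n = 4). Every array on transgenic corn was well under every array on non-transgenic corn, and this gene had the smallest SD of the 4 on S-strain transgenic arrays. Its expression was 2.95-fold lower (log2 ratio -1.56, SE 0.27, limma adjusted p = 0.000531).

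Contig[0039], the other trypsin-like gene, had S-strain levels of 1.56, 1.89, 2.21 and 1.76 on transgenic corn (1.85 ± 0.28, SD, n = 4) and of 2.74, 2.72, 2.90 and 2.70 on non-transgenic corn (2.77 ± 0.09, SD, n = 4). The sets did not overlap, and the arrays of non-transgenic corn lay close together. The fall was 1.88-fold (log2 ratio -0.91, SE 0.15, limma adjusted p = 0.000396), which did not reach the required 2-fold. It passed that ratio with normexp background correction (log2 ratio -1.06) and without S-strain transgenic replicate 3 (-1.03).

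**Figure D1:**
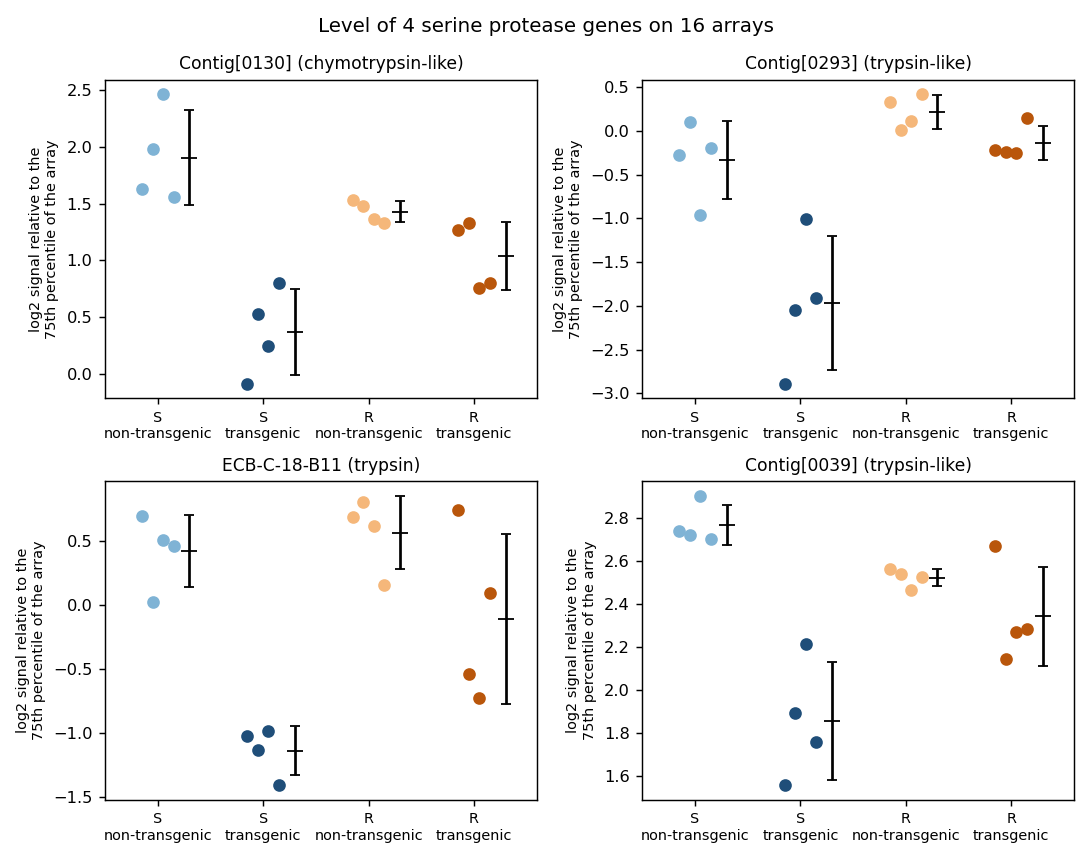
Level of each gene on each array, as log2 signal from the array's 75th percentile (y axis, its own range in each panel), by strain and corn. Points are arrays and the black bars show the mean and SD of 4 arrays. In S-strain the transgenic points lie wholly below the non-transgenic points for all 4 genes, and in R-strain the sets overlap or nearly meet.

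By the exact permutation test over arrays (two-sided), p was 0.0286 for each of the 4 genes in S-strain, the smallest value that 4 arrays against 4 can give. For comparison, 10.0% of all features tested were lower past the threshold in S-strain, and for 14.3% of features every transgenic array lay below every non-transgenic array. Within the 2 rows of the S-strain slide, with 2 arrays of each corn in a row, the log2 ratios were -1.38 and -1.69 for Contig[0130] and -1.36 and -1.90 for Contig[0293]. For ECB-C-18-B11 they were -1.87 and -1.25, and for Contig[0039] -0.995 and -0.828. The direction was therefore the same in both rows for each gene. In bulk RNA of a gut, less RNA per cell and fewer cells that make the enzyme cannot be told apart.

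In R-strain larvae, Contig[0130] had levels of 1.27, 1.33, 0.76 and 0.80 on transgenic corn and of 1.53, 1.48, 1.37 and 1.33 on non-transgenic corn. The 4 lower arrays were all those of transgenic corn, though by a narrow margin between the nearest arrays. The log2 ratio was -0.39 (SE 0.23, limma adjusted p = 0.302). By the exact permutation test, p was 0.0286, and 7.68% of all features had every R-strain transgenic array below every non-transgenic array.

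ECB-C-18-B11 had the most negative R-strain log2 ratio of the 4 genes, with levels of 0.74, -0.54, -0.73 and 0.10 on transgenic corn and 0.69, 0.81, 0.61 and 0.15 on non-transgenic corn. Replicate 1 on transgenic corn lay among the non-transgenic arrays, and the SD on transgenic corn was 0.67 against 0.29 on non-transgenic corn (n = 4 each). The log2 ratio was -0.67 (SE 0.27, limma adjusted p = 0.120). Without R-strain transgenic replicate 1 it was -0.96 (limma adjusted p = 0.00909), still under a ratio of 2, and with array weights -1.04 (limma adjusted p = 0.000387), enough to be past the threshold.

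Contig[0293] had R-strain levels of -0.22, -0.25, -0.25 and 0.15 on transgenic corn and 0.32, 0.00, 0.11 and 0.42 on non-transgenic corn. One array of transgenic corn, replicate 4, lay within the non-transgenic range, and the other 3 were below it. The log2 ratio was -0.36 (SE 0.31, limma adjusted p = 0.522).

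Contig[0039] had R-strain levels of 2.67, 2.14, 2.27 and 2.28 on transgenic corn and 2.56, 2.54, 2.47 and 2.52 on non-transgenic corn. Replicate 1 on transgenic corn was the highest of the 8 arrays and the other 3 transgenic arrays were the lowest. The log2 ratio was -0.18 (SE 0.15, limma adjusted p = 0.511). It was -0.29 without R-strain transgenic replicate 1 (limma adjusted p = 0.204), -0.11 without R-strain transgenic replicate 2 (limma adjusted p = 0.774) and -0.29 with array weights (limma adjusted p = 0.0269).

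Of the 4 genes, limma thus placed 0 past the threshold in R-strain, 1 had an unadjusted p under 0.05 (ECB-C-18-B11), and the methods' test per gene also placed 0. The genes with a low p were others by the methods' test, whose unadjusted p was under 0.05 for Contig[0130] and Contig[0293], at ratios under 2, and not for ECB-C-18-B11. Over all features, 2.99% were lower past the threshold in R-strain, and the share with an unadjusted p under 0.05 was not counted. Within the 2 rows of the R-strain slide the log2 ratios were -0.39 and -0.38 for Contig[0130], -0.45 and -0.27 for Contig[0293], -0.48 and -0.87 for ECB-C-18-B11, and -0.06 and -0.30 for Contig[0039]. The 95% intervals of the log2 ratios, from -0.87 to 0.10, -1.02 to 0.31, -1.26 to -0.09 and -0.51 to 0.15 in the same order, leave room for a fall of more than 1.5-fold for the first 3 genes.

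Whether the corn response differed between the strains was tested directly, as the R-strain log2 ratio minus the S-strain one. The difference was positive for 4 of the 4 genes, that is, the fall was smaller in R-strain, in genes that had been chosen from these arrays mostly for a change in S-strain. It was 1.15 for Contig[0130] (SE 0.32, limma adjusted p = 0.0490), and so past the threshold. It was 1.27 for Contig[0293] (SE 0.44, limma adjusted p = 0.109). For ECB-C-18-B11 it was 0.89, with an SE of 0.39 and an adjusted p of 0.209 from limma, and for Contig[0039] 0.73 (SE 0.22, limma adjusted p = 0.0619). Of all features, 5.61% were past the threshold in either direction. All 4 genes had an unadjusted limma p under 0.05, a looser cut whose share over all features was not counted.

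The call for Contig[0130] lay at the edge of the threshold. It was lost in 12 of the 16 fits without 1 array, at log2 differences of 0.96 to 1.23, and held without S-strain transgenic replicate 4, S-strain non-transgenic replicate 1, S-strain non-transgenic replicate 4 or R-strain transgenic replicate 3. With the replicate number as a block its adjusted p was 0.0789. Without S-strain transgenic replicate 3, Contig[0293] came past the threshold in its place, at 1.59 (limma adjusted p = 0.0200). With normexp background correction the difference for Contig[0293] was 0.78 (limma adjusted p = 0.470), and with array weights that for ECB-C-18-B11 was 0.49 (limma adjusted p = 0.369).

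Levels in both strains were next set in order for each gene, with the reservation that each strain had its own slide. On non-transgenic corn, Contig[0130] was -0.48 in R-strain relative to S-strain on the log2 scale (SE 0.23, limma adjusted p = 0.123), although all 4 R-strain arrays lay below all 4 S-strain arrays. Contig[0039] showed the same arrangement, at -0.24 (SE 0.15, limma adjusted p = 0.244). For both genes the exact permutation p was 0.0286, the smallest possible. The share of all features with such separation of the strains was not counted. The separation is therefore not read as particular to these genes. Contig[0293] was 0.55 (SE 0.31, limma adjusted p = 0.196), ECB-C-18-B11 was 0.14 (SE 0.27, limma adjusted p = 0.729), and for these 2 genes the arrays of the strains overlapped. With limma 0 of the 4 genes passed the threshold, against 19.6% of all features in either direction. By unadjusted limma p, 0 were under 0.05, a cut whose share over all features was not counted. Without S-strain non-transgenic replicate 3, the difference was -0.29 for Contig[0130] and 0.34 for Contig[0293]. That of ECB-C-18-B11 was 0.01 without S-strain non-transgenic replicate 2, 0.06 without R-strain non-transgenic replicate 2, 0.24 without S-strain non-transgenic replicate 1 and 0.28 without R-strain non-transgenic replicate 4. In each of these fits 0 of the 4 genes were past the threshold.

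On transgenic corn, levels were higher in R-strain for 4 of the 4 genes. The genes had been chosen mostly for a change on these S-strain arrays, so this is not independent evidence. Contig[0293] was 3.54-fold higher (log2 1.82, SE 0.31, limma adjusted p = 0.000351), with every R-strain array above every S-strain array. ECB-C-18-B11 was 2.04-fold higher (log2 1.03, SE 0.27, limma adjusted p = 0.00817), also without overlap. It fell under a ratio of 2 without R-strain transgenic replicate 1 (log2 0.75), R-strain transgenic replicate 4 (0.96) or S-strain transgenic replicate 4 (0.94). Contig[0130] was 1.59-fold higher (log2 0.67, SE 0.23, limma adjusted p = 0.0313) and Contig[0039] 1.40-fold (log2 0.49, SE 0.15, limma adjusted p = 0.0214). Of all features, 10.8% were higher in R-strain past the threshold on transgenic corn. The share with every R-strain array above every S-strain array was not counted.

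The order of the 4 groups was thus the same for Contig[0130] and Contig[0039], with S-strain on non-transgenic corn highest, then R-strain on non-transgenic corn, R-strain on transgenic corn and S-strain on transgenic corn. For both genes, the first 3 groups did not differ past the threshold from their neighbour in this order, nor did the last pair reach a ratio of 2. For ECB-C-18-B11 the order was R-strain and then S-strain on non-transgenic corn (0.57 ± 0.29 and 0.42 ± 0.28, SD, n = 4 each), then R-strain on transgenic corn (-0.11 ± 0.67, SD, n = 4) and S-strain on transgenic corn. For Contig[0293] both R-strain groups (0.21 ± 0.19 on non-transgenic and -0.14 ± 0.20 on transgenic corn, SD, n = 4 each) lay above S-strain on non-transgenic corn, whose arrays overlapped with those of R-strain on transgenic corn. S-strain on transgenic corn was the lowest group for each of the 4 genes, a position that the choice of the genes favours.

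The probes of a gene, which overlap and lie on the same arrays, gave similar log2 ratios for the corn response. Of the 18 probes, 18 were lower on transgenic corn in S-strain and 13 were past the threshold, when each probe was fitted on its own. The other 5 were the probes of Contig[0039], with log2 ratios of -0.96 to -0.80. Over all probes, 10.1% were lower past the threshold. The S-strain log2 ratios ranged from -1.62 to -1.44 over the 4 probes of Contig[0130], from -1.79 to -1.41 over the 5 of Contig[0293] and from -1.64 to -1.42 over the 4 of ECB-C-18-B11. The SDs between probes were 0.09, 0.14 and 0.10, beside a median SE of a single probe of 0.22, 0.31 and 0.30. That SE reflects the spread between pools, which the probes of a gene share, so it is no measure of their agreement.

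In R-strain, 18 of the 18 probes also had negative log2 ratios, from -0.79 to -0.08. With limma 0 were past the threshold, against 2.97% of all probes that were lower past it. By unadjusted limma p, 3 were under 0.05, a looser cut whose share over all probes was not counted. For the difference between strains, 2 of the 18 were past it, ECB_Gut 508 (1.21, limma adjusted p = 0.0284) and ECB_Gut 509 (1.25, limma adjusted p = 0.0305), both of Contig[0130]. Its other 2 probes, ECB_Gut 510 (1.01) and ECB_Gut 511 (1.11), were not. In the fit by gene, 5.61% of all features were past the threshold for this difference, in either direction. Flagged spots of ECB_Gut 510 had been left out on R-strain transgenic replicate 1 and R-strain non-transgenic replicate 2.

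**Figure D2:**
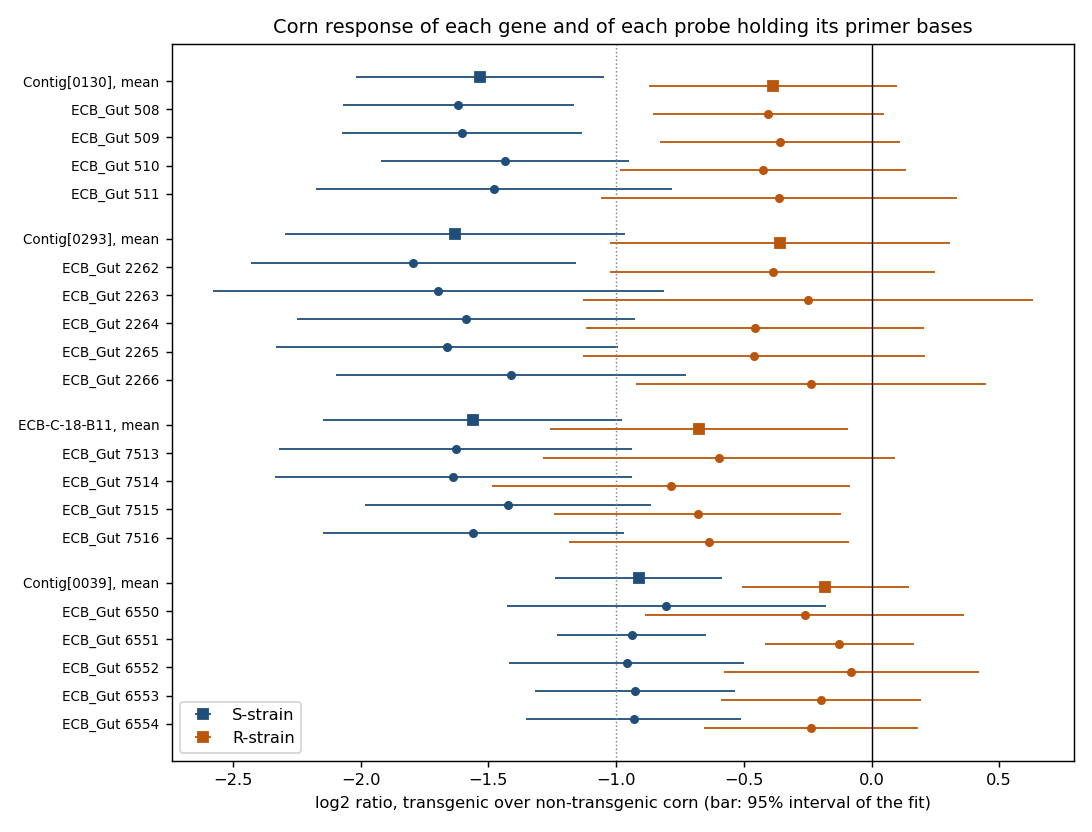
Log2 ratio of transgenic over non-transgenic corn (x axis) for the mean of each gene (squares) and each of its probes (circles), in S-strain (blue) and R-strain (orange), with 95% intervals of the limma fit. The dotted line marks a 2-fold fall. The intervals reflect the spread between pools, which the probes of a gene share. Probes have S-strain values from -1.79 to -0.80 and R-strain values from -0.79 to -0.08.

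Between strains, the probes of Contig[0293] did not agree. On non-transgenic corn the R-strain minus S-strain difference was -0.15 for ECB_Gut 2262, 0.27 for ECB_Gut 2263, 0.63 for ECB_Gut 2264, 1.08 for ECB_Gut 2265 and 0.92 for ECB_Gut 2266. On transgenic corn it ran from 1.25 for ECB_Gut 2262 to 2.28 for ECB_Gut 2265. The probes differ only in which of the end bases of the same window they hold, by 1 to 4 bases. The strain difference printed above for the gene is the mean over these probes and depends on which are used. The other 3 genes had ranges over their probes of 0.40, 0.28 and 0.33 on non-transgenic corn, against 1.23 for Contig[0293].

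The same divergence can be expressed within arrays, where both probes met the same labelled RNA. It is then the same quantity in another form and not a second observation. On the 8 S-strain arrays ECB_Gut 2265 minus ECB_Gut 2262 lay between -0.08 and 0.23 (0.03 ± 0.13, SD, n = 8). On the 8 R-strain arrays it lay between 0.57 and 1.65 (1.16 ± 0.40, SD, n = 8), with no overlap. ECB_Gut 2266 minus ECB_Gut 2262 likewise ran from -0.48 to 0.33 on S-strain arrays and from 0.37 to 1.35 on R-strain arrays. In a comparison of all 32 probe pairs within genes, made after the values were seen, arrays were exchanged between strains within each corn. The pair of ECB_Gut 2262 and ECB_Gut 2265 differed between strains by 1.13 (exact permutation test, two-sided, p = 0.000408, adjusted p = 0.00435 over the 32 pairs), with the smallest p that these exchanges allow. Of the 10 pairs of Contig[0293], 5 had an adjusted p under 0.05, as did 1 of the 6 pairs of Contig[0130], at a difference of -0.12 (exact permutation test, adjusted p = 0.0414). For ECB-C-18-B11 and Contig[0039], 0 of 6 and 0 of 10 pairs did by this exact permutation test. Other overlapping probes of the array were not compared in this way, so how common such divergence is was not tested. Slide and strain cannot be told apart here either.

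**Figure D3:**
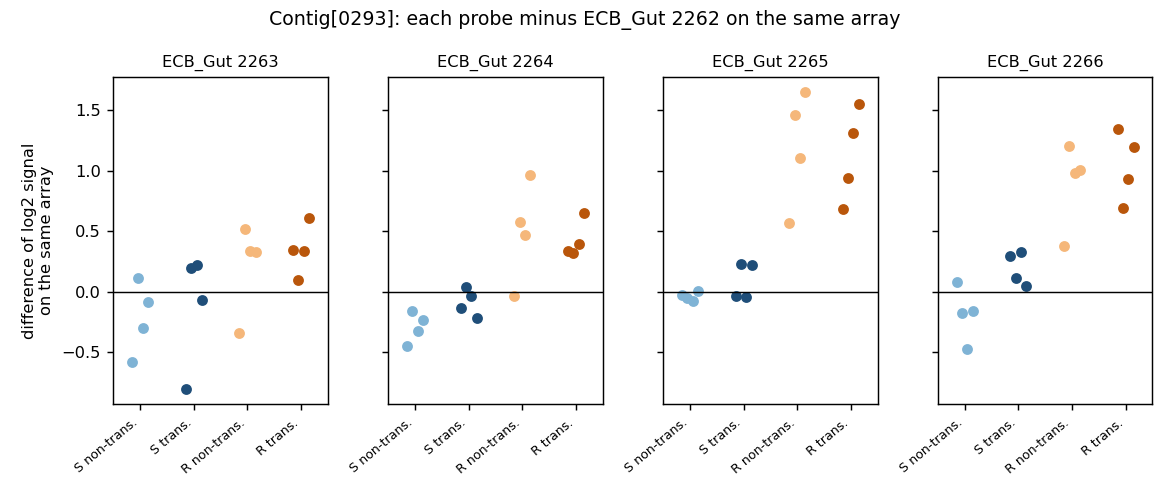
Log2 signal of 4 probes of Contig[0293] minus that of ECB_Gut 2262 on the same array (y axis), by strain and corn; each point is 1 array. For ECB_Gut 2265 the S-strain points lie between -0.08 and 0.23 and the R-strain points between 0.57 and 1.65, on both corns.

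Deviations of arrays from their group means were followed closely by the probes of 3 genes. Pearson's r between probes of a gene, over up to 16 arrays and given without a test because the probes overlap, had a median of 0.86 for Contig[0130] (0.75 to 0.97), 0.85 for Contig[0293] (0.76 to 0.92) and 0.85 for ECB-C-18-B11 (0.73 to 0.92). For Contig[0039] the median was 0.25, with a range from -0.10 to 0.85. There ECB_Gut 6552, ECB_Gut 6553 and ECB_Gut 6554 correlated with each other at 0.66 to 0.85 and ECB_Gut 6550 with ECB_Gut 6551 at 0.63, while the pairs across these sets lay between -0.10 and 0.39. On S-strain transgenic replicate 1, ECB_Gut 6550 had a level of 0.91, against 2.20 to 2.45 on the other 3 arrays of its group. The other 4 probes of Contig[0039] had 1.49 to 1.98 on that array.

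Co-variation between the genes was examined on the same deviations, so that the shared corn response does not enter. Over the 16 arrays, r for the 6 gene pairs ranged from -0.09 to 0.53, with a median of 0.15. Leaving out 1 array moved this median between 0.04 (without S-strain transgenic replicate 3) and 0.29 (without R-strain transgenic replicate 2). The highest was that of ECB-C-18-B11 and Contig[0039] (Pearson r = 0.53, Spearman rho = 0.49, permutation p = 0.0730 and 0.0631, two-sided, 0.438 and 0.378 after adjustment over the 6 pairs). It fell to 0.29 without the R-strain transgenic arrays replicate 1 and replicate 3, and was 0.22 within S-strain and 0.80 within R-strain (n = 8 arrays each). For Contig[0293] and Contig[0039], r was 0.47 (rho = 0.25, permutation p = 0.206 and 0.445, adjusted p = 0.619 and 0.758). It was -0.32 without the S-strain transgenic arrays replicate 1 and replicate 3, so it rested on these arrays. For the remaining 4 pairs r was between -0.09 and 0.31, with adjusted permutation p of 0.739 or more.

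**Figure D4:**
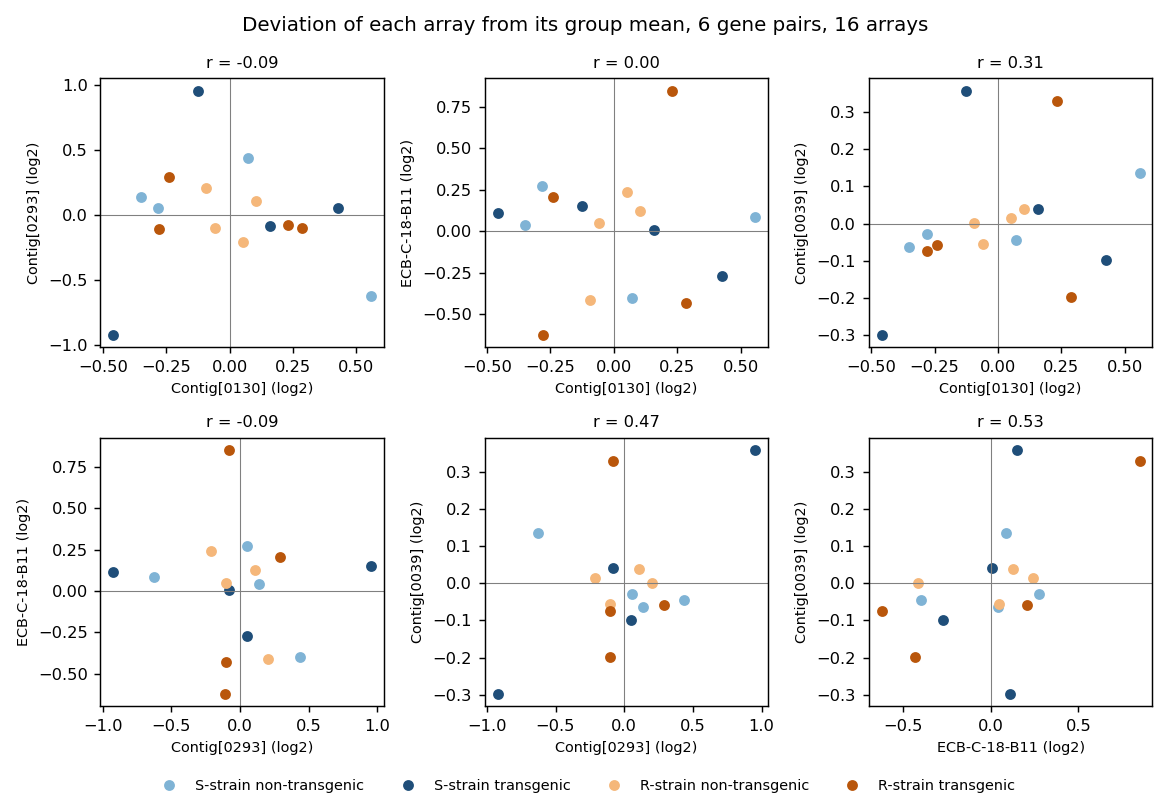
Deviation of each array from the mean of its group (log2) for 1 gene against another, in the 6 pairs of the 4 genes. Each point is 1 of 16 arrays, coloured by group, and the panel titles give Pearson's r, from -0.09 to 0.53. The points form no narrow band in any panel.

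Between a serine protease gene and the 10187 other features with a value on every array, the middle 90% of r lay between -0.57 and 0.50 for Contig[0130] and between -0.55 and 0.50 for Contig[0039]. For ECB-C-18-B11 it lay between -0.59 and 0.56, and for Contig[0293] between -0.46 and 0.51. Of the 6 correlations among the 4 genes, 5 lay within these ranges for both genes, and that of 0.53 lay above the range for Contig[0039] but within that for ECB-C-18-B11. Over the 16 arrays with the group means left in, the probes with the pattern most like that of Contig[0130] were ECB_Gut 6494 and ECB_Gut 3947 (r = 0.94 each). Those most like Contig[0293] were ECB_Gut 2782 and ECB_Gut 5004, those most like ECB-C-18-B11 were ECB_Gut 8343 and ECB_Gut 6358, and those most like Contig[0039] were ECB_Gut 110 and ECB_Gut 10764, with r of 0.94 each. None of these 8 shared 20 consecutive bases with a probe of the gene, and the files give no gene for them.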

How the data were processed

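Total RNA of 16 gut pools, of 5 larvae each, was labelled with Cy3 for custom Agilent arrays, whose spots were read by the authors with Agilent Feature Extraction 9.5 per the labels. The files that the authors deposited give, for each spot, a processed intensity (background subtracted and detrended), a mean intensity, a local background and quality marks. A further table of deposited log2 values was found to be the log2 of the processed intensity less 1 constant per array.

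The log2 processed signal (floor 1) minus the 75th percentile of non-control probes was used here. Spots marked as outliers were left out. Probes well above background on at least 4 arrays (11160) were kept. The primer-holding probes of a gene were averaged, a missing spot taking its probe's mean over the other arrays of its group, which gave 11150 features. The fit used limma (3.58.1, in R 4.3.3) on all 16 arrays as 4 groups, with the contrasts named in the text. Exact permutation tests and permutations of arrays within groups (100000) were run in Python. The fit was tested on simulated data. Arrays give no counts, so their number limits the precision.

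Members, lists and tests were chosen with earlier results of these data known. All 4 genes and all their probes are named, with the 2 probes most like each. The alternatives were other background corrections, scalings, filters, weights, blocks and thresholds, the methods' test, and each array left out. The authors' fold changes and RT-qPCR values were not used.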

Additional observations from a re-analysis of the deposited data

Results flagged for a closer look

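Of 16 sets of a gene and a group and 72 sets of a probe and a group, those with a value on all 4 arrays were checked. Probe sets with a flagged spot left out were therefore not checked. In all, 5 sets held an array that stood apart from the other 3 of its group by Dixon's criterion, which chance meets in about 1 of 20 such sets. In 2 of the 5 it was R-strain non-transgenic replicate 4. R-strain transgenic replicate 4 had a level of 0.15 for Contig[0293], against -0.25 to -0.22 on the other 3 arrays. R-strain non-transgenic replicate 4 was low for the ECB-C-18-B11 probes ECB_Gut 7513 (0.20 against 0.61 to 0.68) and ECB_Gut 7516 (-0.054 against 0.63 to 0.68). S-strain transgenic replicate 1 was low for the Contig[0039] probe ECB_Gut 6550 (0.91 against 2.20 to 2.45). R-strain transgenic replicate 3 was low for ECB_Gut 6551 of the same gene (2.17 against 2.38 to 2.39).

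The difference of the corn response between the strains was past the threshold for Contig[0130] in the main fit. It was 1.15 on the log2 scale (limma adjusted p = 0.0490, adjusted p between 0.0369 and 0.154 over the alternatives). The call was lost in 21 of 28 alternatives. Relative to the non-transgenic mean, the response was negative on 4 of 4 arrays in S-strain and on 4 of 4 in R-strain. The gene had been chosen from these arrays for a change in S-strain, so the difference is not independent evidence.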

How the results depend on the processing

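In S-strain, 3 or 4 of the 4 genes were past the threshold on transgenic corn under all 34 alternatives, and the log2 ratios of the 4 genes stayed negative in both strains. For the R-strain response it was 0 of 4 except with array weights, where 1 gene (ECB-C-18-B11) was past it. For the difference between strains, 1 gene was past the threshold in the main fit and 0 with normexp, quantile normalization, the array median as the scale, no filter on dim probes, array weights, the slide row as a block, each probe on its own or an adjusted p under 0.01. Leaving out each array gave 0 to 1 genes. For R-strain against S-strain on transgenic corn, 2 genes were past the threshold, 1 with normexp or array weights, 4 with no minimum ratio, and 1 to 2 without each array. On non-transgenic corn it was 0 of 4 under all 30 alternatives. The strain difference on non-transgenic corn was -0.12 for Contig[0039] with the array median as the scale, and for ECB-C-18-B11 it was 0.05 with normexp, 0.27 with the array median as the scale and 0.29 with array weights. On transgenic corn it was 0.31 for Contig[0039] with array weights (limma adjusted p = 0.0782).

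Same-numbered arrays of the 2 corns lay in the same column of the slide in each strain. Over all features they did not deviate together (r -0.08 to 0.08 in S-strain and -0.32 to 0.20 in R-strain). These r values cannot decide whether such arrays share an effect on single genes. With the replicate block 3 genes were past the threshold in S-strain, 0 in R-strain, and 0 for the difference, where Contig[0130] had an adjusted p of 0.0789 (0.0970 with the block within each strain, chosen after seeing the data, as was the slide row, with 0.0509).

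Over all features, the number past the threshold moved from 2136 to between 1477 and 3653 in S-strain, from 937 to between 415 and 1701 in R-strain, and from 621 to between 124 and 1044 for the difference. For the strains it moved from 2172 to between 1101 and 3588 on non-transgenic corn and from 2473 to between 1743 and 4189 on transgenic corn. The cause of these shifts was not tested.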
